A study of Mus musculus with 6 samples.

Results

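The genes described here are the ligands and receptors of axon guidance, in the semaphorin, netrin, Slit and ephrin families. They are the rows of the authors' deposited table whose symbol names a semaphorin, plexin, neuropilin, netrin, Dcc, Unc5 receptor, Robo receptor, Slit, ephrin or Eph receptor, which gave 53 of its 26436 genes. By symbol, 31 of these are ligands and 22 are receptors, although the row named Ntn3 carries the gene ID of Tbc1d24, as described below. A further 16 family symbols of the GENCODE annotation are carried by no row, and these genes are not analysed here. They are Dcc, the 4 Robo genes, Sema3a, Sema3d, Sema3e, Plxnb3, Ntn4, Unc5d, Epha3, Epha5, Epha6, Epha7 and Ephb1. Rows were matched by symbol only, and the deposited table holds 16698 symbols for its 26436 genes. A row of these genes without its symbol would therefore be missed, since their gene IDs were not searched. RNA was sequenced from CAD, a mouse catecholaminergic line of central nervous system origin that grows as dividing cells in serum. The differentiated group comprised 3 libraries from cells kept for 5 days without serum, in DMEM/F12 with insulin, transferrin and selenium. The undifferentiated group comprised 3 libraries from cells in that base medium plus fetal bovine serum, and antibiotics were present in both media. Serum loss and the supplement came together with differentiation in this single line, and their effects cannot be told apart. Whether each library had its own culture is not in the labels, so p-values reflect library-to-library spread that may be technical. The sample titles number the libraries, and whether those numbers pair libraries across the groups is not stated. Whether the authors' test took such pairs into account is not given in the sources used here.

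Axon guidance proteins steer growth cones by attraction or repulsion, and many also act on cell migration, adhesion and synapse formation. Semaphorins signal through plexins, and the secreted class 3 members do so with neuropilins as the binding partner. Netrins attract through Dcc and repel through Unc5 receptors, Slits repel through Robo receptors, and ephrins, which stay on the membrane, activate Eph receptor tyrosine kinases on the neighbouring cell and can signal backwards into their own cell.

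Every gene has 1 fold change, differentiated relative to undifferentiated; library values were not analysed here. A level is therefore given as an implied group mean, in normalized counts, which was computed from the authors' mean over both groups and their fold change. A gene is said to have risen or fallen when the authors' Wald test gave an adjusted p under 0.05, and SE is the authors' standard error on the log2 scale. Because whole cultures were sequenced, a change in the share of cells that express a gene and a change in RNA per cell cannot be told apart. The labelled identity was checked first. In the authors' deposited table, markers of catecholaminergic cells had means from 59.7 (Ddc) to 70353 normalized counts (Chgb) for the 11 of 13 with a row under their symbol. No row carries the symbol of the transporter genes Slc6a2 and Slc6a3. Th, the rate-limiting enzyme gene of catecholamine synthesis, had a mean of only 91.3 in the authors' deposited table, and Dbh, which makes noradrenaline, fell to an implied 14.0 normalized counts in differentiated cells, against 569 in undifferentiated cells. Of 23 markers of astrocytes, myelinating glia, fibroblasts, endothelium and immune cells, 19 had a row under their symbol and 14 of these had a mean under 10. Their implied levels summed to 1048 normalized counts in differentiated cells, against 620 in undifferentiated cells, mostly from the endothelial marker Pecam1, whose mean was 632 in the authors' deposited table. Pecam1 and the myelin gene Mbp were called higher, and no other marker of these types was called. Their part in the results below was not tested.

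All but 1 of the called guidance ligands were higher in differentiated cells, whereas receptors were called in both directions. Of the 53 genes, 50 had an adjusted p, and of these 20 rose, 6 fell and 24 were not called by the authors' Wald test. Over all 20285 genes tested, 35.9% were called, 18.2% higher and 17.7% lower. The share called grows with expression level, and for genes averaging 100 or more it was 47.5%, with 21.9% higher and 25.6% lower. Of 31 guidance genes above that level, 17 rose (54.8%) and 6 fell (19.4%). The median log2 fold change was 0.48 over the 50 guidance genes and 0.01 over all genes tested. Split by role, 13 of 29 ligands rose and 1 fell, with a median of 0.50. Of 21 receptors, 7 rose and 5 fell, with a median of 0.11. The difference between ligands and receptors was not tested. Changes of at least 2-fold were called higher for 10 members and lower for 1, which was Slit3. Over all genes tested, 8.37% were called with a change of at least 2-fold in either direction.

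**Figure D1:**
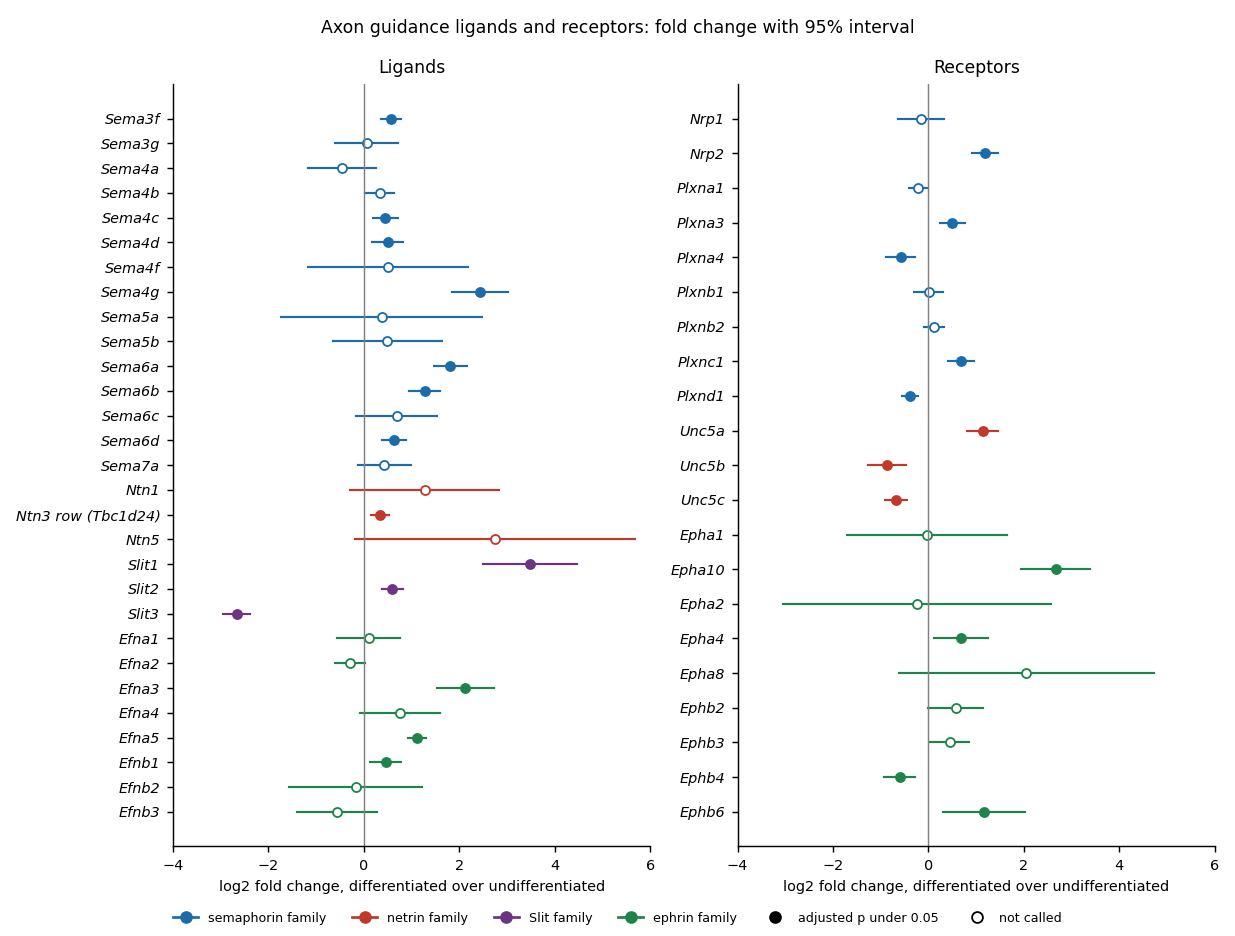
Log2 fold change (differentiated over undifferentiated cells, x axis) of the 29 ligands and 21 receptors with an adjusted p, 1 gene per line, with bars for the 95% interval from the authors' standard error. Filled points passed an adjusted p under 0.05 and open points did not, colours mark the 4 families, and the row named Ntn3 carries the gene ID of Tbc1d24. Slit3 is the only ligand left of the line with a filled point, while 5 receptors lie there.

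The count includes a row whose gene ID is not that of a netrin. The authors' deposited table gives the symbol Ntn3 to ENSMUSG00000036473, which GENCODE M21 names Tbc1d24, a gene of vesicle traffic, on chromosome 17 from 24175431 to 24205562. In that annotation Ntn3 is a separate model on the same strand, and it overlaps 89 of the 8557 exonic bases of Tbc1d24. The annotation release behind the counts is not given in the sources used here. That row had a log2 fold change of 0.34 (adjusted Wald p 0.0018, SE 0.09) in the authors' deposited table, and it is not read here as netrin 3. Without it, 19 of 49 members rose and 6 fell, and 12 of 28 ligands rose. Of the 30 remaining members averaging 100 or more, 16 rose (53.3%) and 6 fell (20%).

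**Figure D2:**
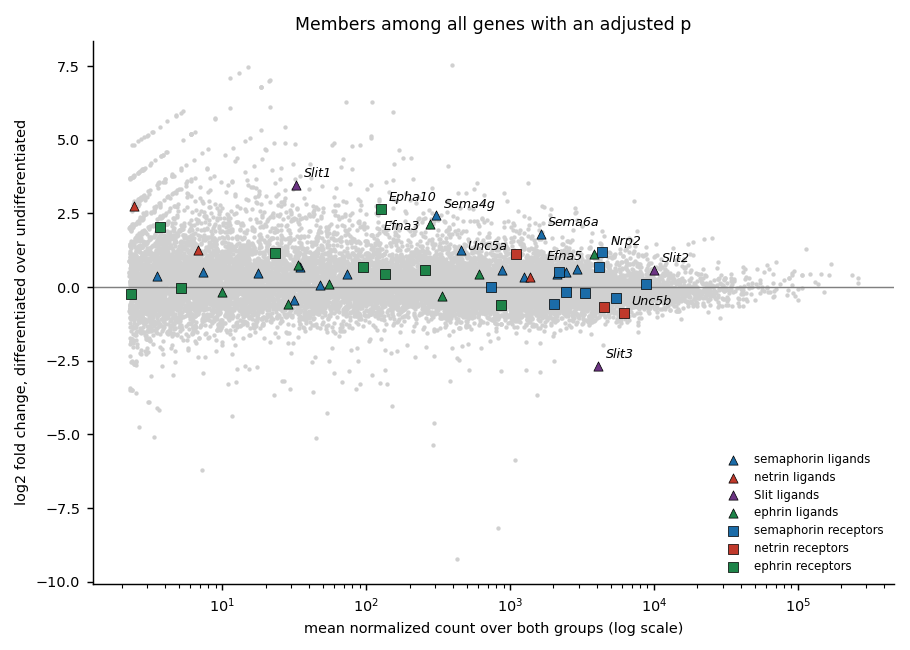
Log2 fold change (y axis) against the mean normalized count over both groups (x axis, log scale) of the 20285 genes with an adjusted p (grey) and of the 50 guidance genes among them (coloured by family, triangles for ligands and squares for receptors). Slit3 is the lowest member, at a log2 fold change of -2.67, while Slit2 has the highest mean normalized count of the members and Slit1 has the largest rise of the called members, at a low mean.

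Of the called members, Slit1 had the largest rise and Slit3 the largest fall. Slit3 fell to an implied 1115 normalized counts in differentiated cells, against 7079.7 in undifferentiated cells, which is 6.35-fold lower. Its log2 fold change was -2.67 (adjusted Wald p 7.3e-72, SE 0.15) in the authors' deposited table, and its Wald statistic was the 2nd lowest of all 20285 genes tested. The 95% interval of that log2 fold change ran from -2.95 to -2.38. Slit3 lies on chromosome 11 from 35121224 to 35708507 (GRCm38). Slit2 rose to an implied 12075 normalized counts in differentiated cells, against 8013 in undifferentiated cells (log2 fold change 0.59, adjusted Wald p 1.65e-06, SE 0.11 in the authors' deposited table). Slit1 had implied means of 60.1 normalized counts in differentiated cells, against 5.40 in undifferentiated cells. With a log2 fold change of 3.48 (adjusted Wald p 1.3e-10, SE 0.50) in the authors' deposited table it was called higher, with an interval from 2.49 to 4.46. Per kilobase of the longest transcript, Slit2 had 1212 normalized counts and Slit3 213 in differentiated cells, against 804 for Slit2 and 1354 for Slit3 in undifferentiated cells. The order of these genes was thus inverted between the states, with Slit1 far below them in each. The Robo receptors that Slits bind are not analysed here, so ligand and receptor cannot be set side by side for this family.

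Slit2 and Slit3 each carry a copy of the miR-218 gene in an intron, on the same strand. The mature sequences from RefSeq (GRCm38.p6) are shown because the 2 hosts moved in opposite directions and share the main arm. Capitals mark the seed, bases 2 to 8.
mmu-miR-218-5p: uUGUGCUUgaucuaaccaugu
mmu-miR-218-1-3p: aAACAUGGuuccgucaagcacc
mmu-miR-218-2-3p: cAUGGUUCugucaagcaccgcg
The 5p arm is identical from both copies, at positions 48223966 to 48223986 of chromosome 5 within Slit2 and 35616840 to 35616860 of chromosome 11 within Slit3. The 3p arms differ in sequence and have different seeds. Mature miRNAs were not measured by these libraries. The precursor genes had means of only 0.353 (Mir218-1) and 2.35 (Mir218-2) normalized counts in the authors' deposited table, and Mir218-2 was not called at a log2 fold change of -3.48 (adjusted Wald p 0.0911, SE 1.67).

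Semaphorin ligands that were called were all higher in differentiated cells. Of 15 tested semaphorin genes, 7 were called higher and 0 lower by the authors' Wald test, and at an unadjusted p under 0.05 the counts were 8 and 0. The share called was 46.7%, all of it higher. Over all genes tested 35.9% were called, with 18.2% higher. The median log2 fold change was 0.50. Sema4g, a transmembrane class 4 member, had the largest rise, to an implied 519 normalized counts in differentiated cells, against 96.1 in undifferentiated cells. Its log2 fold change was 2.43 (SE 0.30, interval 1.85 to 3.01, adjusted Wald p 1.33e-14) in the authors' deposited table. Other class 4 genes rose less, Sema4c by 1.36-fold (log2 0.45, SE 0.13) and Sema4d, a plexin B ligand, by 1.41-fold (log2 0.50, SE 0.16) in the authors' deposited table. Sema4b was not called at 0.33 (adjusted Wald p 0.0755, SE 0.15) in the authors' deposited table. Sema4a (-0.45, SE 0.36) and the scarcely expressed Sema4f (0.51, SE 0.86) were not called either.

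Class 6 semaphorins, transmembrane ligands of A plexins that can also act as receptors, had a median log2 fold change of 0.98, and 3 of 4 rose. Sema6a had an implied 2556 normalized counts in differentiated cells, against 728 in undifferentiated cells, and a log2 fold change of 1.81 (SE 0.18, interval 1.46 to 2.17, adjusted Wald p 1.41e-21) in the authors' deposited table. Sema6b reached 641 normalized counts in differentiated cells, against 266 in undifferentiated cells, and rose 2.41-fold (log2 1.27, adjusted Wald p 1.52e-12, SE 0.17 in the authors' deposited table). Sema6d, the most abundant of the class per kilobase, rose 1.55-fold (log2 0.63, SE 0.13) to 3562 normalized counts in differentiated cells, against 2303 in undifferentiated cells. Sema6c, with a mean of 34.7, stood at 0.69 (adjusted Wald p 0.218, SE 0.43) in the authors' deposited table and was not called.

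Sema3f was the only member of the secreted class 3 with a mean of at least 100. It had an implied 1047 normalized counts in differentiated cells, against 706 in undifferentiated cells, a rise of 0.57 on the log2 scale (adjusted Wald p 9.34e-07, SE 0.11) in the authors' deposited table. Sema3g was not called at 0.06 (SE 0.34) with a mean of 47.7 in the authors' deposited table, and Sema3b and Sema3c, with means of 1.34 and 0.365, have no adjusted p. Class 5 was close to the detection limit, with means of 3.49 for Sema5a and 17.7 for Sema5b in the authors' deposited table. Sema7a, which is tethered by a lipid anchor, was not called at 0.43 (adjusted Wald p 0.239, SE 0.28) in the authors' deposited table.

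The semaphorin receptors divided. Of 9 tested, 3 rose and 2 fell, with a median log2 fold change of 0.01. The share called was 55.6%, beside 35.9% of all genes tested and 47.5% of those averaging 100 or more. Nrp2, the neuropilin that binds Sema3f, rose 2.28-fold, to an implied 6051 normalized counts in differentiated cells, against 2651 in undifferentiated cells. Its log2 fold change was 1.19 (SE 0.14, interval 0.92 to 1.46, adjusted Wald p 3.9e-16) in the authors' deposited table. Nrp1, the neuropilin that binds Sema3a and also vascular endothelial growth factor, had 2317 normalized counts in differentiated cells, against 2584 in undifferentiated cells. It was not called at -0.16 (SE 0.24, interval -0.63 to 0.32, adjusted Wald p 0.675) in the authors' deposited table. The standard error of Nrp1 was 2.27 times the median of the 200 genes nearest in mean. The intervals of the neuropilin genes do not overlap, and the difference between them was not tested.

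Among the plexins, Plxnc1, the receptor of Sema7a, rose 1.61-fold (log2 0.68, adjusted Wald p 1.02e-05, SE 0.14) and Plxna3 1.42-fold (log2 0.50, adjusted Wald p 0.000762, SE 0.13) in the authors' deposited table. Plxna4 fell to an implied 1606 normalized counts in differentiated cells, against 2401 in undifferentiated cells (log2 fold change -0.58, adjusted Wald p 0.000866, SE 0.15 in the authors' deposited table). Plxnd1, known as the receptor of Sema3e, fell by 0.39 on the log2 scale (adjusted Wald p 4.05e-05, SE 0.08) in the authors' deposited table. Plxna1 (-0.21, adjusted Wald p 0.0966, SE 0.10), Plxnb1 (0.01, SE 0.15) and Plxnb2 (0.11, SE 0.11) missed the threshold, by the authors' deposited table. Plxnb2 was the most abundant member per kilobase in differentiated cells, and the interval of its fold change ran from -0.09 to 0.32 on the log2 scale. Plxna2 had a mean of 0.512 in the authors' deposited table and no adjusted p.

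Netrin receptors changed in opposite directions, while transcripts of the netrin genes Ntn1 and Ntn5 were scarce. Ntn4 is carried by no row and the Ntn3 row is not read as a netrin, so the level of netrins as a whole is not known. Unc5a rose to an implied 1504 normalized counts in differentiated cells, against 685 in undifferentiated cells (log2 fold change 1.14, adjusted Wald p 3.84e-10, SE 0.17 in the authors' deposited table). Unc5b fell to 4379 normalized counts in differentiated cells, against 7994 in undifferentiated cells, with a log2 fold change of -0.87 (adjusted Wald p 9.17e-05, SE 0.20) in the authors' deposited table. Unc5c fell likewise, to 3455 normalized counts in differentiated cells, against 5560 in undifferentiated cells (log2 fold change -0.69, adjusted Wald p 4.9e-08, SE 0.12 in the authors' deposited table). Unc5b was the most abundant of these receptors in differentiated cells, at 746 normalized counts per kilobase, with 376 for Unc5a and 358 for Unc5c. In undifferentiated cells the levels per kilobase were 1362 for Unc5b, 171 for Unc5a and 576 for Unc5c. Per kilobase of the median transcript instead, Unc5a was the highest in differentiated cells, at 1675, with 923 for Unc5c and 767 for Unc5b, so the order there depends on the transcript taken. Unc5a was the lowest of the group in undifferentiated cells on either scale. Its ligand Ntn1 had a mean of 6.74 and was not called at 1.27 (adjusted Wald p 0.218, SE 0.79) in the authors' deposited table. Ntn5, with a mean of 2.44 in the authors' deposited table, was not called either.

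Ephrins of the A class, which hold to the membrane by a lipid anchor, rose in 2 of 5 cases and fell in 0 by the authors' Wald test, with the same counts at an unadjusted p under 0.05. That share called, 40%, was near the 35.9% of all genes tested. Efna5 rose to an implied 5231 normalized counts in differentiated cells, against 2411 in undifferentiated cells, and its log2 fold change of 1.12 had a standard error of only 0.09 (interval 0.93 to 1.30, adjusted Wald p 1.27e-29) in the authors' deposited table. Efna3 had 454 normalized counts in differentiated cells, against 104 in undifferentiated cells (log2 fold change 2.13, SE 0.30, interval 1.53 to 2.72, adjusted Wald p 7.48e-11 in the authors' deposited table). Efna3 lies on chromosome 3 from 89313899 to 89322965, with Efna4 10.4 kb and Efna1 32.8 kb away on the same strand. Neither neighbour was called, Efna4 at 0.75 (adjusted Wald p 0.161, SE 0.42) and Efna1 at 0.10 (adjusted Wald p 0.861, SE 0.34) in the authors' deposited table. Efna2 was not called at -0.30 (adjusted Wald p 0.146, SE 0.16) in the authors' deposited table. An antisense gene, Gm15998, covers 344 of the exonic bases of Efna3, but its mean was 9.81 normalized counts, against 279 for Efna3, in the authors' deposited table. The strand setting of the counting is not known.

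Of the 3 B ephrins, which cross the membrane, 1 was called. Efnb1 rose 1.38-fold (log2 0.46, adjusted Wald p 0.0181, SE 0.17) in the authors' deposited table, to an implied 707 normalized counts in differentiated cells, against 514 in undifferentiated cells. Efnb2 (-0.18, SE 0.71) and Efnb3 (-0.56, SE 0.42), with means of 9.94 and 28.6 in the authors' deposited table, were not called. Over the 8 ephrin genes, 3 rose and 0 fell by the authors' Wald test, and the counts were the same at an unadjusted p under 0.05, with a median log2 fold change of 0.28. The share of these ephrin genes called was 37.5%, near the 35.9% of all genes tested.

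The Eph receptors were called in both directions. Of 9 tested, 3 rose and 1 fell, with a median of 0.57. The share called was 44.4%, beside 35.9% of all genes tested and 47.5% of those averaging 100 or more. Epha10, whose product lacks kinase activity, rose to an implied 220.1 normalized counts in differentiated cells, against 34.7 in undifferentiated cells, a 6.35-fold difference (log2 fold change 2.67, adjusted Wald p 1.69e-11, SE 0.37 in the authors' deposited table). Ephb6, likewise without kinase activity, rose 2.24-fold (log2 1.17, adjusted Wald p 0.0252, SE 0.44) at a mean of 23.1 in the authors' deposited table. Epha4, a receptor of ephrins of either class, stood at 117 normalized counts in differentiated cells, against 73.3 in undifferentiated cells. Its call was close to the threshold, with a log2 fold change of 0.68 (adjusted Wald p 0.0486, SE 0.29) in the authors' deposited table, and was lost when p-values were adjusted over all genes with no filter on the mean (adjusted p 0.0633). The receptor that fell was Ephb4, the partner of Efnb2, with 688 normalized counts in differentiated cells, against 1048 in undifferentiated cells (log2 fold change -0.61, adjusted Wald p 0.00151, SE 0.17 in the authors' deposited table). Ephb2 (0.57, adjusted Wald p 0.119, SE 0.29) and Ephb3 (0.44, adjusted Wald p 0.0885, SE 0.21) missed the threshold, by the authors' deposited table. Epha1, Epha2 and Epha8 had means between 2.32 and 5.16 in the authors' deposited table and were not called. Exons of Epha1 overlap Zyx, on the other strand, in 236 bases, and Zyx had a mean of 1757 in the authors' deposited table.

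**Figure D3:**
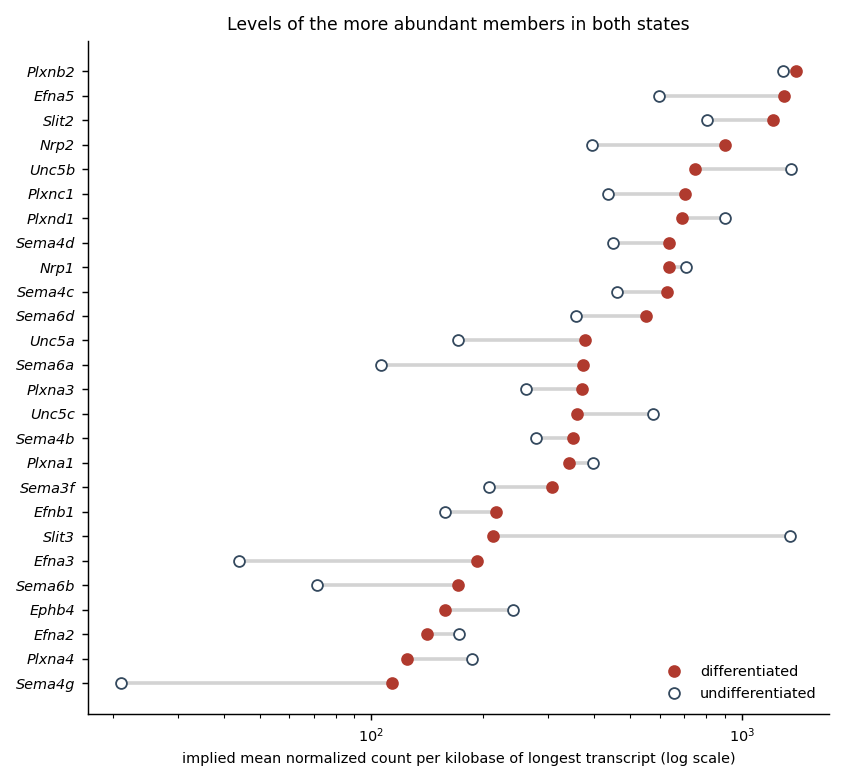
Implied mean normalized count per kilobase of the longest transcript (x axis, log scale) in differentiated (filled) and undifferentiated cells (open) for the 26 guidance genes at 100 or more per kilobase in either state, the Ntn3 row left out, ordered by their level in differentiated cells. Slit3 spans the widest decrease, 213 in differentiated cells against 1354 in undifferentiated cells, and Sema4g the widest increase, 114 in differentiated cells against 21.1 in undifferentiated cells.

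Levels can be compared between genes only per length. In differentiated cells 27 members reached 100 normalized counts per kilobase, the Ntn3 row among them. Plxnb2 (1399), Efna5 (1297), Slit2 (1212), Nrp2 (900.0) and Unc5b (746) were the highest there in normalized counts per kilobase. In undifferentiated cells the order was Unc5b (1362), Slit3 (1354), Plxnb2 (1292), Plxnd1 (899) and Slit2 (804). The spread of levels over libraries was not analysed here, so neighbours in these orders are not claimed to differ. By the median transcript length Plxnb2 kept rank 1 in differentiated cells, while Efna5 had rank 8, Nrp2 rank 14 and Unc5b rank 18. In undifferentiated cells Plxnd1 then had rank 1, Plxnb2 rank 2, Slit3 rank 3 and Unc5b rank 10, so these orders depend on the transcript taken. No Eph receptor other than Ephb4 reached 100 per kilobase in either state, while Efna5, Efnb1 and Efna2 did so in both states.

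Known partners were set side by side in 25 ligand and receptor pairs, chosen from textbook knowledge after the values were known. Sema3f rose together with its receptor subunits Nrp2 and Plxna3, each called on its own. Efna3 and Efna5 rose with Epha4, whose adjusted Wald p was 0.0486. In no other ephrin pair were both partners called. Efnb1 rose while its receptors Ephb2 and Ephb3 were not called. Epha4 rose and Ephb4 fell while their ligands Efnb3 and Efnb2 were not called. Neither Efna1 nor its receptor Epha2 was called. Sema6a rose while Plxna4, a receptor for it, fell. Of the semaphorin pairs, 5 joined a ligand that rose with a receptor that was not called, among them the pairs of Sema4c, Sema4d and Sema4g with Plxnb2. In the netrin pairs the ligand was not called while Unc5a rose and Unc5b and Unc5c fell. Members share genes across pairs, so the pairs are not independent of each other.

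Promoter sequences of the called members with the largest change of each role and direction are shown, 300 bases each around the RefSeq start (GRCm38.p6), 5′ to 3′ on the gene's strand. Only genes with a mean of at least 100 were taken. Capitals mark the GC box GGGCGG on either strand, a motif of the Sp factors, with overlapping matches counted.
Sema4g, chr19:44989094-44989393, plus strand: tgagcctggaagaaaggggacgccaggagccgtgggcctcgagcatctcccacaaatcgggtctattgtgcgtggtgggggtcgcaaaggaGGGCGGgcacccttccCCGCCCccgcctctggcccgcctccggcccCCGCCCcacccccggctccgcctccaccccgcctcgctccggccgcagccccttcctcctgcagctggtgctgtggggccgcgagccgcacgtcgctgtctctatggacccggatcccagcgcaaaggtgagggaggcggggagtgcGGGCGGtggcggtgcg
Slit3, chr11:35121206-35121505, plus strand: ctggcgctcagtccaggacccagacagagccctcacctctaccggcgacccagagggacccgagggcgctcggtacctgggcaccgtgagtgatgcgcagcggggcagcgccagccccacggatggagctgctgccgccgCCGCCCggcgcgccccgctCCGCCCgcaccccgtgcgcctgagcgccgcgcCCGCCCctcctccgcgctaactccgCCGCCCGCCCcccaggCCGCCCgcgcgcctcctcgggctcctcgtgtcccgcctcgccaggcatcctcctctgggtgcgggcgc
Epha10, chr4:124881535-124881834, plus strand: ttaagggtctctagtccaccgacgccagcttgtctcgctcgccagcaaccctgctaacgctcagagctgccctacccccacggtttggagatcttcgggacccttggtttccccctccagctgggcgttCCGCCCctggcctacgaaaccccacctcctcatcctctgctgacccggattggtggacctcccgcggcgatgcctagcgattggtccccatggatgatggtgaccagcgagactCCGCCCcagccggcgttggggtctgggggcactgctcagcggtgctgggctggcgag
Unc5b, chr10:60831532-60831831, minus strand: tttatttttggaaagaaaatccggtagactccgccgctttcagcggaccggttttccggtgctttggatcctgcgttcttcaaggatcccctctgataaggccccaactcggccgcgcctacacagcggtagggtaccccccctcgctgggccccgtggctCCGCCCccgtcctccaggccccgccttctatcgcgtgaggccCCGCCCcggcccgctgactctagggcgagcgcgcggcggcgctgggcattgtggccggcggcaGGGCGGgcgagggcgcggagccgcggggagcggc
The Slit3 promoter held 6 GC boxes, that of Sema4g 4, that of Unc5b 3 and that of Epha10 2, so the genes that fell and those that rose each had several. Of 52 members looked up, 44 had a promoter in the RefSeq table, 57 promoters in all. A GC box was found in 78.9% of these, in 64.9% of the 10857 promoters of tested genes averaging 100 or more and in 35.7% of all 32851 promoters. The E-box CANNTG, a motif of basic helix-loop-helix factors, was found in 47.4% of member promoters, 62.7% of those of tested genes averaging 100 or more and 72.3% of all promoters. Slit3 and Unc5b had none in this window, and Sema4g and Epha10 had 1 each. The median GC content was 65.3% in member promoters, 61.3% in those of genes averaging 100 or more and 52.7% in all.

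Genes that transmit guidance signals, and guidance genes outside these families, were counted from 5 lists chosen with earlier results of these data known. Of 84 tested genes, 24 rose and 10 fell, with a median log2 fold change of 0.12. Those 34 called genes of 84 stand beside 35.9% called over all genes tested. Of the 78 that averaged 100 or more, 23 rose and 9 fell. That is a smaller share called than the 47.5% of all genes at that level. The list of semaphorin signalling had 6 of 17 higher and 4 lower. Rras, a small GTPase that plexins switch off, rose by a log2 fold change of 1.82 (adjusted Wald p 2.06e-10, SE 0.27), and the kinase gene Fyn rose by 1.08 (SE 0.16) in the authors' deposited table. Dpysl3, a collapsin response mediator gene, fell by 1.04 on the log2 scale (adjusted Wald p 4.43e-21, SE 0.11) in the authors' deposited table. Of its relatives on the list with a row under their symbol, Dpysl5 fell (-0.67, SE 0.13), while Crmp1 (0.46, SE 0.18) and Dpysl2 (0.50, SE 0.17) rose, in the authors' deposited table. Of 14 netrin signalling genes, 4 rose and 0 fell by the authors' Wald test (4 and 0 at an unadjusted p under 0.05), among them the actin-binding gene Ablim3 (1.47, SE 0.14) and the ubiquitin ligase gene Trim9 (0.56, SE 0.15) in the authors' deposited table. For this list the share called was smaller than the 35.9% of all genes tested.

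Slit and ephrin signalling genes moved little. Of 13 Slit signalling genes only Enah, an actin polymerization factor, rose (0.37, adjusted Wald p 3.84e-05, SE 0.08 in the authors' deposited table) and 0 fell by the authors' Wald test (2 higher and 0 lower at an unadjusted p under 0.05). Of 18 ephrin signalling genes, 1 rose and 3 fell. Chn1, a Rac-inactivating gene downstream of Epha4, rose by 0.35 (SE 0.13) in the authors' deposited table. Those that fell were the exchange factor genes Kalrn (-0.51, SE 0.17) and Tiam1 (-0.41, SE 0.12) and the actin-severing gene Cfl1 (-0.31, SE 0.10) in the authors' deposited table. Guidance ligands and receptors of other families rose in 12 of 22 cases and fell in 3. Ntng2, a membrane-anchored relative of the netrins, had an implied 520.1 normalized counts in differentiated cells, against 50.8 in undifferentiated cells (log2 fold change 3.36, adjusted Wald p 2.73e-63, SE 0.19 in the authors' deposited table). Lingo1, a co-receptor for myelin inhibitors, rose by 1.63 (SE 0.18), Flrt3, an Unc5 ligand gene, by 0.86 (SE 0.19), and the netrin receptor genes Dscam (0.48, SE 0.10) and Neo1 (0.28, SE 0.10) rose less, in the authors' deposited table. Flrt1, of the same family as Flrt3, fell (-0.66, SE 0.14), as did Rtn4r, the receptor that Lingo1 assists (-0.36, SE 0.13), in the authors' deposited table. Cxcr4, a chemokine receptor that guides migrating neurons, fell to 18.5 normalized counts in differentiated cells, against 134 in undifferentiated cells (log2 fold change -2.85, SE 0.34, in the authors' deposited table). The authors' deposited table of pathway statistics lists the KEGG set Axon guidance among its upregulated sets, with 159 genes, a mean statistic of 2.05 and a q-value of 0.00225. KEGG's axon guidance pathway covers these same families, so it is no separate evidence.

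**Figure D4:**
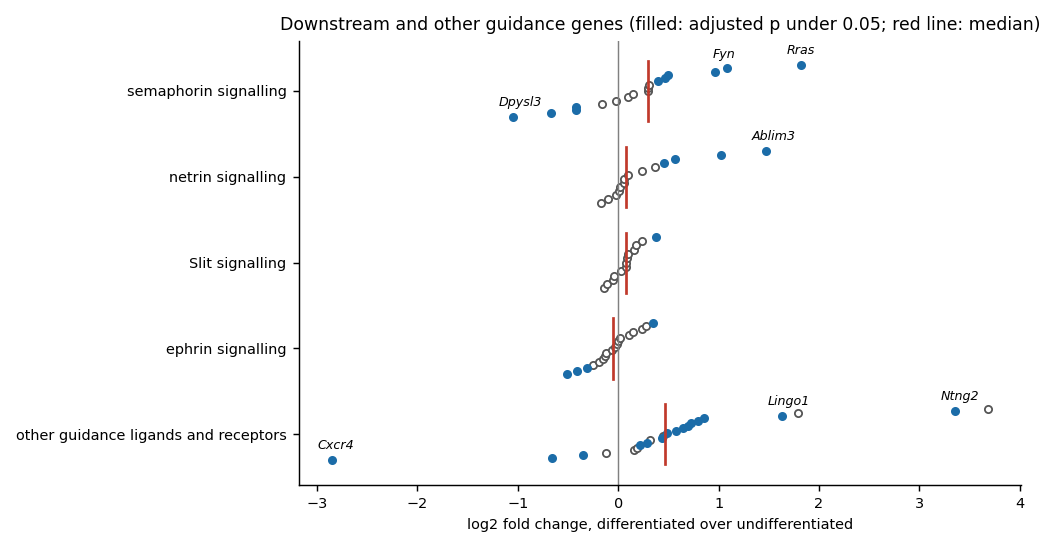
Log2 fold change (differentiated over undifferentiated cells, x axis) of the tested genes of 5 lists of signalling and other guidance genes, 1 point per gene, filled where the adjusted p was under 0.05, with a red line at each list's median. Labels mark called genes with a log2 change beyond 1 that the text names, such as Ntng2 at 3.36 and Cxcr4 at -2.85, and the Slit and ephrin signalling genes lie within a narrow range around 0.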

How the data were processed

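The submitters' processing notes name STAR 2.5.1a, Trimmomatic 0.36, FastQC 0.11.5, DESeq2 and build GRCm38.p6. Libraries were stranded, per the labels' protocols. Which counter, strand setting and annotation release were used is not given in the sources used here. Per the file headers, each gene's deposited signal is a mean of normalized counts, with a log2 fold change and log2 standard error, a Wald score (fold change over standard error), a p-value and its adjusted p-value. From the deposited pathway sheet, 1 set was used. The depth of single libraries is unknown; mean normalized counts sum to 38846803, and for the 31 members averaging 100 or more, the median standard error was 0.15.

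No test was refitted: the plan's branch for a table of the authors' comparison was followed, and results were called at their adjusted p under 0.05. Implied group means take both groups as equally large. Intervals (95%) use the authors' standard error. Coordinates, transcript lengths and overlaps came from GENCODE M21 (GRCm38), which matched all 53 members. Members, lists, pairs and named genes were chosen with earlier results of these data known; the named genes are all members and up to 3 called genes of each list with a mean of at least 100, and Dscam, Neo1, Crmp1, Dpysl2, Dpysl5, Flrt1, Rtn4r, Cfl1 and Cxcr4 were added after their values were seen; 1 gene that the rule takes is not reported here. The alternatives (7) changed the threshold, the filter, the centring or the size of change tested. Functions were tested on simulated data. Python 3.11.15, scipy 1.17.1 and pandas 2.3.3 were used.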

Additional observations from a re-analysis of the deposited data

How the results depend on the processing

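Of 26 called members, 16 kept their call under all 7 alternatives that tested it. No called member changed direction, since the alternatives reuse the same fold changes or shift all genes alike by little. The uncalled Epha1 went from a log2 fold change of -0.03 to 0.004 when centred on the median gene. A test for a change beyond 1.2-fold had the most effect: 13 members were then called higher and 3 lower, with 0 semaphorin receptors and 0 ephrin receptors lower (1 of each at an unadjusted p under 0.05), 0 netrin ligands higher (0 unadjusted), 1 ephrin receptor higher, and 10 higher and 4 lower among the signalling and other guidance genes. At an adjusted p under 0.01 a single ephrin receptor was called higher (1), as with genes averaging 100 or more, where also 1 Slit was called higher, since Slit1, Epha4 and Ephb6 lie below that mean. Leaving out the Ntn3 row, an alternative chosen after seeing the data, left 0 netrin ligands higher by the authors' Wald test (0 at an unadjusted p under 0.05). Centring on the median gene, which shifts fold changes by 0.03, added Sema4b (adjusted p 0.0472). With the median transcript length in place of the longest, 28 members reached 100 per kilobase in differentiated cells. No paired analysis was possible because the table holds no values of single libraries; for the same reason other normalizations, edgeR and leaving out replicates were not run. Depth limits the 11 members with a mean under 10, none of which was called, and changes in them were not detectable here.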
